A study of Mus musculus with 6 samples.

Results

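The C-type lectin genes of the Dectin-2 cluster and of related myeloid receptors were examined in cells carrying CD45 and CD11b that had been sorted from the mouse pancreas. The set held 9 genes chosen by symbol (Clec4e, Clec4d, Clec4n, Clec4a1, Clec4a2, Clec4a3, Clec4b1, Clec5a and Clec12a), all of them listed among the 21780 genes of the count table. The study used male and female C57BL/6J mice, 6 to 8 weeks old, and the sex of the animal behind each library is not given. The animals were given either PBS or 1 mg of WGP into the peritoneal cavity. WGP are whole β-glucan particles, yeast cell wall shells of Saccharomyces cerevisiae. Cells were sorted on day 7, and each group was sequenced as 3 libraries, each from a different animal, all in a single experiment. The sort kept all cells that carry both markers, so each library is a mixture of myeloid cell types. The comparison addressed here is which of these receptors differed in level between cells of WGP-treated and PBS-treated mice.

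C-type lectin receptors of the Dectin-2 cluster sit on myeloid cells and bind sugars and glycolipids of fungi, mycobacteria and damaged cells. Mincle (Clec4e), MCL (Clec4d), Dectin-2 (Clec4n) and DCAR (Clec4b1) lack a signalling motif of their own and use the FcRγ chain (Fcer1g), from which Syk and Card9 carry the signal. The DCIR genes lie in the same cluster, and DCIR1 (Clec4a2) carries an inhibitory motif in its tail. Outside the cluster, MDL-1 (Clec5a) couples to DAP12 (Tyrobp), and MICL (Clec12a) is an inhibitory receptor. Dectin-1 (Clec7a), the main receptor for β-glucan, was not among the genes with deposited counts, so its level could not be analysed here.

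The PBS libraries held 35334645, 38419377 and 40580936 counts and the WGP libraries 38240913, 43341834 and 41990018. PBS replicate 1 stood apart from the other PBS libraries in its cell type markers. The level of Cd79a, a gene of the B cell receptor, was 686 CPM in PBS replicate 1 against 167 and 92.6 CPM in PBS replicates 2 and 3, and the summed level of 6 markers of resident macrophages was 3575 CPM against 7237 and 9416 CPM. Counts of the Y-linked genes Ddx3y, Eif2s3y, Kdm5d and Uty summed to 0, 8972 and 10063 in the PBS libraries and to 0, 0 and 1 in the WGP libraries. PBS replicates 2 and 3 therefore differed from the other 4 libraries in this respect. Since no WGP library had more than 1 such count, this difference is partly confounded with the treatment. A fit with a covariate for Y-linked counts rested on PBS replicate 1 alone for the PBS level. Values without PBS replicate 1 and with this covariate are given for several of the results below.

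Of the 9 genes, all 9 passed the filter on low counts, 5 rose and 1 fell in the WGP libraries, and 3 were not called. Calls required an edgeR quasi-likelihood p that was no more than 0.05 after Benjamini-Hochberg adjustment over 14429 protein-coding genes, and a log2 fold change of 1 or more in either direction. By this rule 9.49% of all genes tested were called, 4.53% higher and 4.96% lower with WGP. Without the fold change threshold 8 of the 9 passed, 7 higher and 1 lower, against 14.4% of all genes tested in either direction. In 8 of the 9 genes the WGP libraries did not overlap the PBS libraries, against 32.0% of all genes tested. The median log2 fold change of the 9 genes was 1.14, and that of all genes tested was -0.05. The set was chosen with earlier results of these data known, so these values describe it and do not test it. Scaling by library totals alone moved the median of all genes by -0.10 on the log2 scale and changed neither the direction nor the call of any of the 9 genes.

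**Figure D1:**
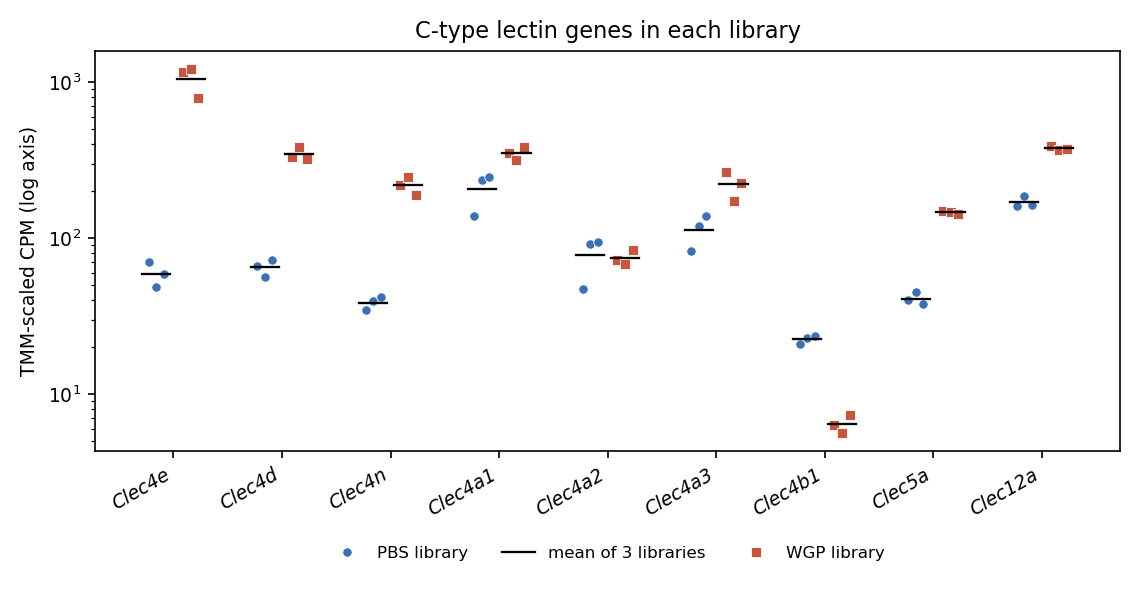
TMM-scaled CPM (log axis) of the 9 C-type lectin genes in each of the 3 PBS libraries (circles) and 3 WGP libraries (squares), with a line at the mean of each group. Clec4e stands between 48.7 and 70.0 CPM with PBS and between 795 and 1216 CPM in the WGP libraries, Clec4b1 is lower in the WGP libraries, and the groups overlap for Clec4a2.

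Clec4e (ENSMUSG00000030142), the gene of Mincle, lies on the minus strand of chromosome 6 of GRCm38 from 123281789 to 123289870. Its level was 70.0, 48.7 and 59.4 CPM with PBS and 1155, 1216 and 795 CPM in the WGP libraries. Every WGP library was above every PBS library, and WGP replicate 3 was the lowest of its group. The mean rose from 59.4 ± 10.7 to 1055 ± 228 CPM (SD, n = 3), which was 17.8-fold, with a log2 fold change of 4.15 (SE 0.23, 95% interval 3.65 to 4.66, edgeR adjusted p = 5.24e-06). By its edgeR p it ranked 12 of the 14429 genes tested, and by its log2 fold change it ranked 605. The latter rank counts genes whether or not they were called, also those with few counts. Only 208 genes were called higher with a log2 fold change of at least 2. Over the 16 other fits the log2 fold change of Clec4e lay between 3.91 and 4.32.

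Clec4d (ENSMUSG00000030144), which encodes MCL, a receptor that forms complexes with Mincle, lies on the plus strand from 123262111 to 123275265. It was measured at 66.4, 56.7 and 72.0 CPM with PBS and at 334, 386 and 321 CPM in the WGP libraries. The groups were far apart and the libraries within each group were close. Clec4d had a log2 fold change of 2.41 (SE 0.16, edgeR adjusted p = 1.33e-05), a rise of 5.33-fold. Clec4n (ENSMUSG00000023349), the gene of Dectin-2 itself, lies on the plus strand from 123229843 to 123247021. It had 34.6, 39.4 and 41.9 CPM with PBS and 219, 246 and 188 CPM in the WGP libraries. Again no WGP library reached down to a PBS library. The log2 fold change of Clec4n was 2.50 (SE 0.16, edgeR adjusted p = 1.33e-05), a rise of 5.64-fold. Without PBS replicate 1 the log2 fold changes of Clec4e, Clec4d and Clec4n were 4.29, 2.43 and 2.42.

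Clec4b1 (ENSMUSG00000030147), which encodes DCAR, moved the other way. This receptor also pairs with the FcRγ chain, and its gene lies in the same cluster from 123049962 to 123071555. Its level was 20.9, 22.9 and 23.7 CPM with PBS and 6.35, 5.69 and 7.33 CPM in the WGP libraries. All WGP libraries were below all PBS libraries. Its log2 fold change was -1.80 (SE 0.28, 95% interval -2.43 to -1.17, edgeR adjusted p = 0.00178), which made its level 3.48-fold lower.

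Clec5a (ENSMUSG00000029915), the gene of MDL-1, lies outside the cluster on the minus strand from 40574894 to 40585821. It was at 39.9, 44.9 and 38.02 CPM with PBS and at 149, 148 and 143 CPM in the WGP libraries. The libraries of each group lay close together and the groups did not overlap. Clec5a rose 3.58-fold, with a log2 fold change of 1.84 (SE 0.14, edgeR adjusted p = 2.84e-05). Clec12a (ENSMUSG00000053063), the gene of the inhibitory receptor MICL, lies from 129342691 to 129365303. It had 161, 187 and 163 CPM with PBS and 388, 368 and 373 CPM in the WGP libraries. Each WGP library was above each PBS library. The log2 fold change of Clec12a was 1.14 (SE 0.14, edgeR adjusted p = 0.000356), a rise of 2.21-fold, and over the 16 other fits it lay between 1.04 and 1.22, just inside the fold change threshold.

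The DCIR genes of the cluster were not called. Clec4a1 (ENSMUSG00000049037), the gene of DCIR4, had 139, 237 and 247 CPM with PBS and 352, 316 and 387 CPM in the WGP libraries. The groups did not overlap, and PBS replicate 1 was the lowest library. Its log2 fold change of 0.76 (SE 0.21, edgeR adjusted p = 0.0384) passed the adjusted p and not the fold change threshold. Clec4a3 (ENSMUSG00000043832), the gene of DCIR3, had 82.6, 119 and 139 CPM with PBS and 265, 174 and 227 CPM in the WGP libraries. Here too PBS replicate 1 was the lowest and the groups did not overlap. Clec4a3 stood at a log2 fold change of 0.96 (SE 0.22, edgeR adjusted p = 0.0141), just short of the fold change threshold.

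Clec4a2 (ENSMUSG00000030148), which encodes the inhibitory receptor DCIR1, had 47.6, 91.8 and 94.8 CPM with PBS and 72.5, 68.2 and 84.6 CPM in the WGP libraries. The WGP libraries lay between PBS replicate 1 and the other PBS libraries. Its log2 fold change was -0.06, with a 95% interval from -0.60 to 0.49 (SE 0.25, edgeR adjusted p = 0.925). The results for these 3 genes depended on the libraries compared. With the covariate for Y-linked counts, Clec4a1 and Clec4a3 were called, at log2 fold changes of 1.33 and 1.42 (adjusted p = 0.00201 and 0.00677 from edgeR), and Clec4a2 was at 0.66 (adjusted p = 0.0745, in a range over its other fits from 0.0745 to 1). Without PBS replicate 1 the log2 fold changes of Clec4a1, Clec4a3 and Clec4a2 were 0.54, 0.78 and -0.32. Clec4a3 was also called without PBS replicate 3 (log2 fold change 1.14) and without WGP replicate 2 (1.11). Without PBS replicate 2, WGP replicate 1 or WGP replicate 3 neither gene passed the adjusted p, which was 0.0705, 0.0996 and 0.133 for Clec4a1 and 0.0509, 0.0644 and 0.0512 for Clec4a3 (edgeR), in ranges over the other fits from 0.00201 to 0.133 and from 0.000643 to 0.0644. Some 3.24% of the 75-base stretches of the Clec4a2 transcripts also occur in transcripts of Clec4a4 or Clec4b1, and 1.02% of those of Clec4b1 in Clec4a2, while the other 7 genes share none with another annotated gene. Clec4a2 also overlaps the processed pseudogene Gm44132 on the same strand, so its counts are less certain than those of the other genes.

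Levels of different genes were compared per kb of exon. In the PBS libraries Clec4a1 was the most abundant of the 9 genes at 133 ± 38.01 CPM per kb, followed by Clec4a3 at 85.7 ± 21.5 (SD, n = 3), and the libraries of these neighbours in the order overlapped. Clec4d came next at 40.7 ± 4.85 CPM per kb, below every library of Clec4a3. Clec12a, Clec4b1, Clec4n and Clec4a2 followed between 26.7 and 30.9 CPM per kb, each overlapping the next in the order. With the longest transcript as the length Clec12a was at 52.8 and Clec4d at 49.2 CPM per kb, so their order depended on the length used. Clec4e at 12.0 ± 2.15 and Clec5a at 10.7 ± 0.93 CPM per kb were the lowest and overlapped.

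In the WGP libraries Clec4a1 at 226 ± 22.6, Clec4d at 217 ± 21.6, Clec4e at 212 ± 45.8, Clec4a3 at 167 ± 34.4 and Clec4n at 153 ± 20.2 CPM per kb formed the upper part of the order (SD, n = 3). Each of these genes overlapped the next in the order, while every library of Clec4a1 and Clec4d was above every library of Clec4a3 and Clec4n, by a small margin for Clec4a3 (lowest 203 and 201 against highest 199 CPM per kb). Clec12a at 68.1 ± 1.83, Clec5a at 38.2 ± 0.87, Clec4a2 at 25.7 ± 2.90 and Clec4b1 at 8.24 ± 1.05 CPM per kb followed without overlap. The summed level of the 9 genes was 314, 421 and 452 CPM per kb in the PBS libraries and 1163, 1129 and 1055 CPM per kb in the WGP libraries. The share of Clec4e in this sum was 4.49%, 2.33% and 2.65% in the PBS libraries and 20.0%, 21.7% and 15.2% in the WGP libraries. The share of Clec4a1 was 28.5%, 36.0% and 35.1% in the PBS libraries and 19.4%, 18.0% and 23.5% in the WGP libraries. Clec4b1 went from a mean share of 7.37% to 0.74%.

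**Figure D2:**
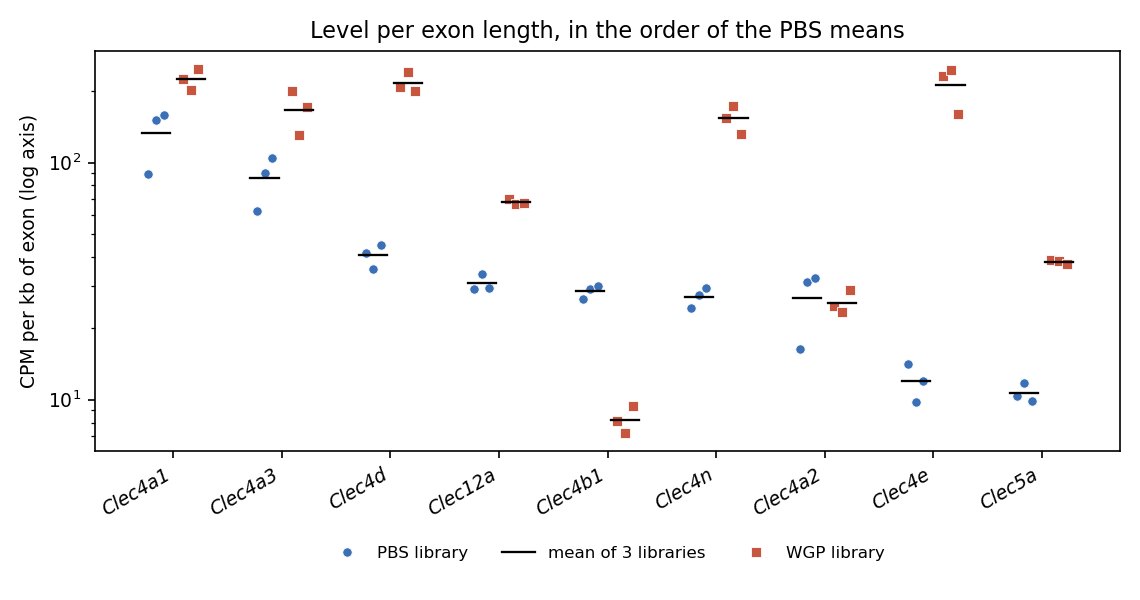
Level per exon length (CPM per kb of the union of exons, log axis) of the 9 genes in each PBS library (circles) and WGP library (squares), ordered by the PBS mean, with a line at the mean of each group. Clec4e is next to last in the PBS libraries, at 12.0 CPM per kb, and overlaps Clec4a1 and Clec4d in the WGP libraries.

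Ratios of counts within a library, which do not depend on scaling, were compared for 8 pairs of genes. The smallest p of an exact two-sided permutation test with 3 libraries per group is 0.1, so no ratio could pass a threshold of 0.05. Clec4e had 1.05, 0.86 and 0.82 counts for each count of Clec4d in the PBS libraries and 3.46, 3.15 and 2.48 in the WGP libraries, a change of 3.31-fold (exact permutation p = 0.1, 0.133 after Benjamini-Hochberg adjustment over the 8 ratios). The ratio of Clec4e to Clec4n was higher in the same way, at 5.26, 4.95 and 4.22 against 2.02, 1.24 and 1.42. In contrast, Clec4d to Clec4n stood at 1.92, 1.44 and 1.72 in the PBS libraries and at 1.52, 1.57 and 1.71 in the WGP libraries. These groups overlapped, and the difference of the log2 ratio was -0.07 (exact permutation p = 0.6, also 0.6 adjusted). The ratio of Clec4a1 to Clec4a3 overlapped as well (difference of the log2 ratio -0.18, exact permutation p = 0.5, 0.571 adjusted). Against their adaptor Fcer1g, the ratios of Clec4e, Clec4d and Clec4n were 11.7-fold, 3.52-fold and 3.71-fold higher in the WGP libraries. The ratio of Clec5a to its adaptor Tyrobp was 2.48-fold higher. In each of these 4 ratios all WGP libraries lay above all PBS libraries (exact permutation p = 0.1, 0.133 adjusted).

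The Clec4 members lie on chromosome 6 of GRCm38 between 122921848 and 123289870, a span of 368 kb that holds 9 genes of the count table. In order, these are Clec4a1, Clec4a3, Clec4a4, Clec4b1, Clec4a2, Clec4b2, Clec4n, Clec4d and Clec4e. The genes that rose, Clec4n, Clec4d and Clec4e, are adjacent at the distal end of the span. Clec4d and Clec4e point toward each other with 6523 bases between their annotated ends. Clec4a4 and Clec4b2, the cluster genes outside the set, were near the detection limit. Clec4a4 had 0, 49 and 60 counts in the PBS libraries and 189, 91 and 94 in the WGP libraries (log2 fold change 1.82, SE 1.502, edgeR adjusted p = 0.476). With the covariate for Y-linked counts it was called (adjusted p = 0.0442, in a range over its other fits from 0.0442 to 0.754), in a fit that compares the WGP libraries with PBS replicate 1, where it had 0 counts. Clec4b2 had 60, 0 and 0 counts in the PBS libraries and 14, 1 and 0 in the WGP libraries.

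Within 200 kb on either side of the span the table listed Slc2a3, Foxj2, C3ar1, Necap1, Vmn2r19 and Vmn2r20. The vomeronasal receptor genes Vmn2r19 and Vmn2r20 had 0 counts in all libraries. Of the 6 genes tested in the window that are not members, 0 were called by edgeR, DESeq2 or limma-voom, and 2 had an unadjusted p under 0.05 in edgeR, as had 3754 of all 14429 genes tested. Necap1, which encodes an endocytosis protein and is next to Clec4a1, passed the adjusted p alone (log2 fold change 0.72, SE 0.20, edgeR adjusted p = 0.0365, in a range over its other fits from 0.0214 to 0.211). Slc2a3, the gene of a glucose transporter, was the other gene under 0.05 unadjusted, with a log2 fold change of -0.93 (SE 0.33, edgeR adjusted p = 0.0942, in a range over its other fits from 0.0325 to 0.261). The median log2 fold change of the 6 genes was -0.13.

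**Figure D3:**
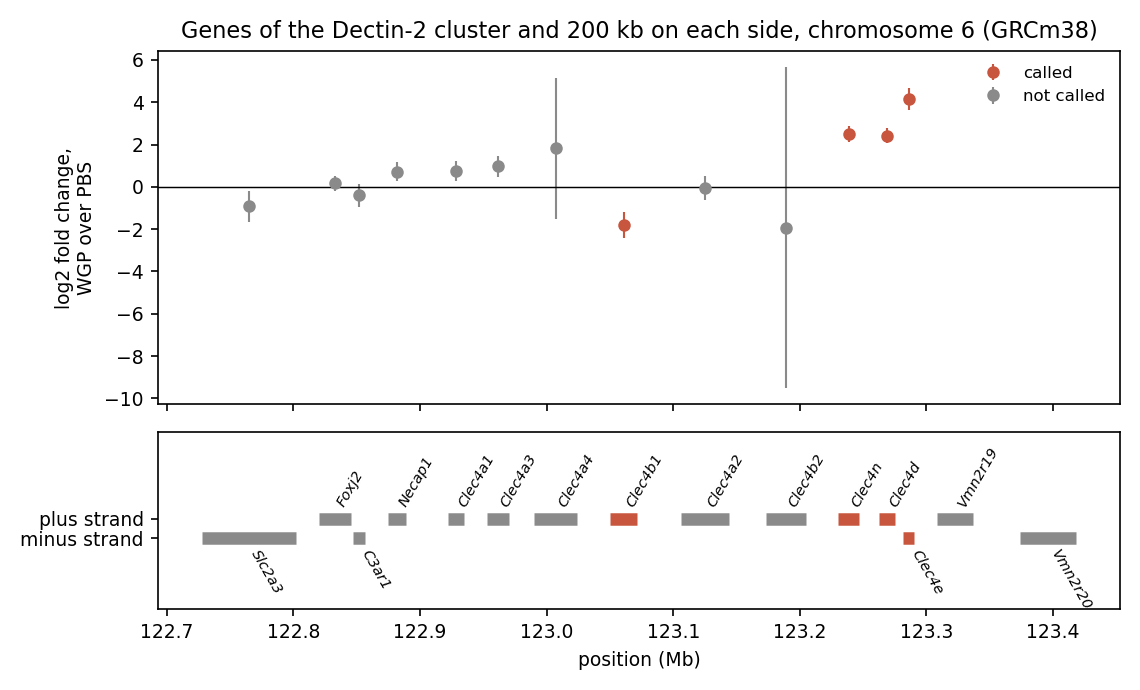
Log2 fold change (WGP over PBS, with 95% intervals) of the genes on chromosome 6 of GRCm38 within the Dectin-2 cluster and 200 kb on each side, above a map of the genes to scale by strand (position in Mb). Called genes are red and others grey. Clec4n, Clec4d and Clec4e, at 2.50, 2.41 and 4.15, lie side by side at the distal end, and Clec4b1 at -1.80 lies among genes that were not called. Vmn2r19 and Vmn2r20, with 0 counts, have no point.

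Promoter windows of 300 bases around a start were given by RefSeq for GRCm38.p6 and matched 8 of the 9 genes, all except Clec4n. Clec4a3 had 2 windows, and those of Clec4a2 (chr6:123122440-123122739) and Clec12a (chr6:129349994-129350293) lie inside the annotated gene and not at its outer end. Both strands were searched for the letters of known binding motifs. TTGCNNAA, a motif of C/EBP factors, was present for Clec4e and Clec12a and in 10.8% of all 32851 windows. GAAANNGAA, a core of the interferon-stimulated response element, was present for Clec4d and Clec4b1 and in 8.56% of all windows. TGANTCA, a motif of AP-1, was present for Clec4a2 and Clec12a and in 7.81% of all windows. TATAAA, the TATA box, was present for Clec4e, Clec4a2 and Clec5a and in 13.6% of all windows. GAGGAAGT, a motif of PU.1, and the NF-kB motif had no match in the windows of the 8 genes and were in 3.20% and 6.93% of all windows. No base of the windows of these genes belonged to more than 1 of these motifs. The windows of the gene with the largest rise, of its neighbour, and of the gene that fell are shown in the direction of transcription, with motif matches on either strand in capitals. They are chr6:123289822-123290121 on the minus strand for Clec4e, chr6:123261857-123262156 on the plus strand for Clec4d and chr6:123049712-123050011 on the plus strand for Clec4b1. In Clec4e the capitals mark the C/EBP motif and the TATA box, and in Clec4d and Clec4b1 they mark the interferon-stimulated response element. The element was thus present both in a gene that rose and in the gene that fell.
Clec4e: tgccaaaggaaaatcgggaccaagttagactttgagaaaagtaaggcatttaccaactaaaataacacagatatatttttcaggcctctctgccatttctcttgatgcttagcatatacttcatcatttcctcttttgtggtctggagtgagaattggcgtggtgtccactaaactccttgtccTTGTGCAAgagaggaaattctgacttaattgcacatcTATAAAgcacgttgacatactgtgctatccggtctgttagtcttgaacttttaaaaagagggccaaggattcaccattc
Clec4d: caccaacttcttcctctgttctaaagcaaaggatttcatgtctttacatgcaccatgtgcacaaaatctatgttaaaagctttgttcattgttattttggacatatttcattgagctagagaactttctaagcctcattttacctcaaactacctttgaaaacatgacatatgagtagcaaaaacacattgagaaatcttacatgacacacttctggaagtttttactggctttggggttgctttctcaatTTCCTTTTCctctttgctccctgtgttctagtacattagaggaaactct
Clec4b1: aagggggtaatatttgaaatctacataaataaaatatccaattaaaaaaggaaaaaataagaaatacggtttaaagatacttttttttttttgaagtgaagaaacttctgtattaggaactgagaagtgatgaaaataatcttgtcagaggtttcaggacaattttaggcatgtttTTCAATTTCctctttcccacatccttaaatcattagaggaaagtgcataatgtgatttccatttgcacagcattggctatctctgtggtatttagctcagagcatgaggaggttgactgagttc

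Of 13 genes of adaptors and signalling proteins of these receptors, all tested, 1 was called higher and 0 lower by edgeR, against 4.53% of all genes tested called higher. By the adjusted p alone 7 were higher, against 1088 of all 14429 genes tested. At an unadjusted p under 0.05, 8 were higher and 0 lower, against 3754 of all 14429 genes tested in either direction, and DESeq2 and limma-voom each called 1. The median log2 fold change of the 13 genes was 0.57. Fcer1g, the gene of the FcRγ chain, was at 810 ± 106 CPM per kb in the PBS libraries and 1220 ± 55.2 CPM per kb in the WGP libraries (SD, n = 3), above each of the 9 receptor genes. Its log2 fold change was 0.59 (SE 0.15, edgeR adjusted p = 0.0250). Tyrobp, the gene of DAP12, had a log2 fold change of 0.53 (SE 0.15, edgeR adjusted p = 0.0435). Card9, the scaffold downstream of Syk, stood at 0.57 (SE 0.15, edgeR adjusted p = 0.0272), and Ptpn6, the phosphatase SHP-1 that inhibitory receptors recruit, at 0.74 (SE 0.15, edgeR adjusted p = 0.00777). All of these were below the fold change threshold, and none of these 4 passed the adjusted p in every fit. Over the other fits the adjusted p ranged from 0.000333 to 0.1001 for Fcer1g, from 0.00243 to 0.157 for Tyrobp, from 0.00655 to 0.168 for Card9 and from 2.95e-06 to 0.0510 for Ptpn6, and Tyrobp did not pass in any of the 6 fits with a library left out. Vav1, a signalling protein downstream of Syk, passed in every fit, with a log2 fold change of 0.69 (SE 0.13, edgeR adjusted p = 0.00601, at most 0.0318 over the other fits). Syk, the kinase that binds the adaptors, was not called, with a log2 fold change of 0.15 and a 95% interval from -0.21 to 0.51. Prkcd, the kinase PKCδ that phosphorylates Card9, was the gene called, with a log2 fold change of 1.12 (SE 0.16, edgeR adjusted p = 0.000999). The list had 2 called genes without PBS replicate 1.

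Of 26 other C-type lectin receptor genes, 25 were in the table and 24 were tested. Of these 2 rose and 9 fell in edgeR, against 4.53% and 4.96% of all genes tested, and over the other fits at the same thresholds 2 to 4 were called higher and 8 to 9 lower. Their median log2 fold change was -1.13, and it was the same with Clec12b and Cd209e, which were at 0 in all libraries of a group, at the bound given by 3 counts over the group. Clec4f, the marker of Kupffer cells in the liver, had 0 counts in all libraries. Mrc1, the mannose receptor CD206, had a mean of 2606 ± 1100 CPM with PBS and 348 ± 19.7 CPM in the WGP libraries (SD, n = 3), a log2 fold change of -2.91 (SE 0.31, edgeR adjusted p = 0.000165). Mgl2 and Clec10a, the genes of the galactose-type lectins CD301b and CD301a, had log2 fold changes of -3.41 and -2.01 (adjusted p = 5.91e-05 and 0.000804 from edgeR). The CD209 family members Cd209a, Cd209b, Cd209d, Cd209f and Cd209g, relatives of DC-SIGN, had log2 fold changes of -1.35, -4.53, -3.66, -4.60 and -5.02. Without WGP replicate 2 those of Cd209b, Cd209d and Cd209g were -6.3, -4.3 and -5.8, and without WGP replicate 3 they were -3.9, -3.2 and -4.7. In the WGP libraries Cd209b had 40, 186 and 0 counts, Cd209d 79, 146 and 16, and Cd209g 50, 170 and 47. The most frequent low count in these libraries was 18, 30 and 30. The size of the falls of Cd209b, Cd209d and Cd209g is therefore imprecise (SE 1.11, 0.67 and 0.50). Cd209c was not called (log2 fold change -0.99, edgeR adjusted p = 0.417), and over its other fits the log2 fold change lay between -1.55 and 1.17. Colec12, a scavenger receptor with a collagen-like domain, was at -4.09 (SE 0.55, edgeR adjusted p = 0.000675). With the covariate for Y-linked counts the log2 fold changes of Mrc1, Mgl2, Clec10a and Colec12 were -1.96, -2.69, -1.19 and -2.94, and without PBS replicate 1 they were -3.22, -3.68, -2.29 and -4.44, so the size of these falls depended on the libraries compared. Cd209a was not called with the covariate for Y-linked counts (-0.84), and Cd209b was not called by DESeq2, by limma-voom, with that covariate, without PBS replicate 3 or without WGP replicate 1 (adjusted p from edgeR 0.0776 and 0.0830 for the last 2). In the fits where it was not called, the log2 fold change of Cd209b lay between -6.61 and -3.84.

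Among the other receptors the genes that rose were Olr1 and Clec2d. Olr1, the gene of the oxidized LDL receptor LOX-1, had 59, 348 and 316 counts in the PBS libraries and 2084, 1726 and 1268 in the WGP libraries. PBS replicate 1 was the lowest and the groups did not overlap. Its log2 fold change was 2.83 (SE 0.54, edgeR adjusted p = 0.00581), against 4.81 with the covariate for Y-linked counts and 2.37 without PBS replicate 1. Clec2d, which encodes a ligand of NK cell receptors, rose with a log2 fold change of 1.14 (SE 0.15, edgeR adjusted p = 0.000668).

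**Figure D4:**
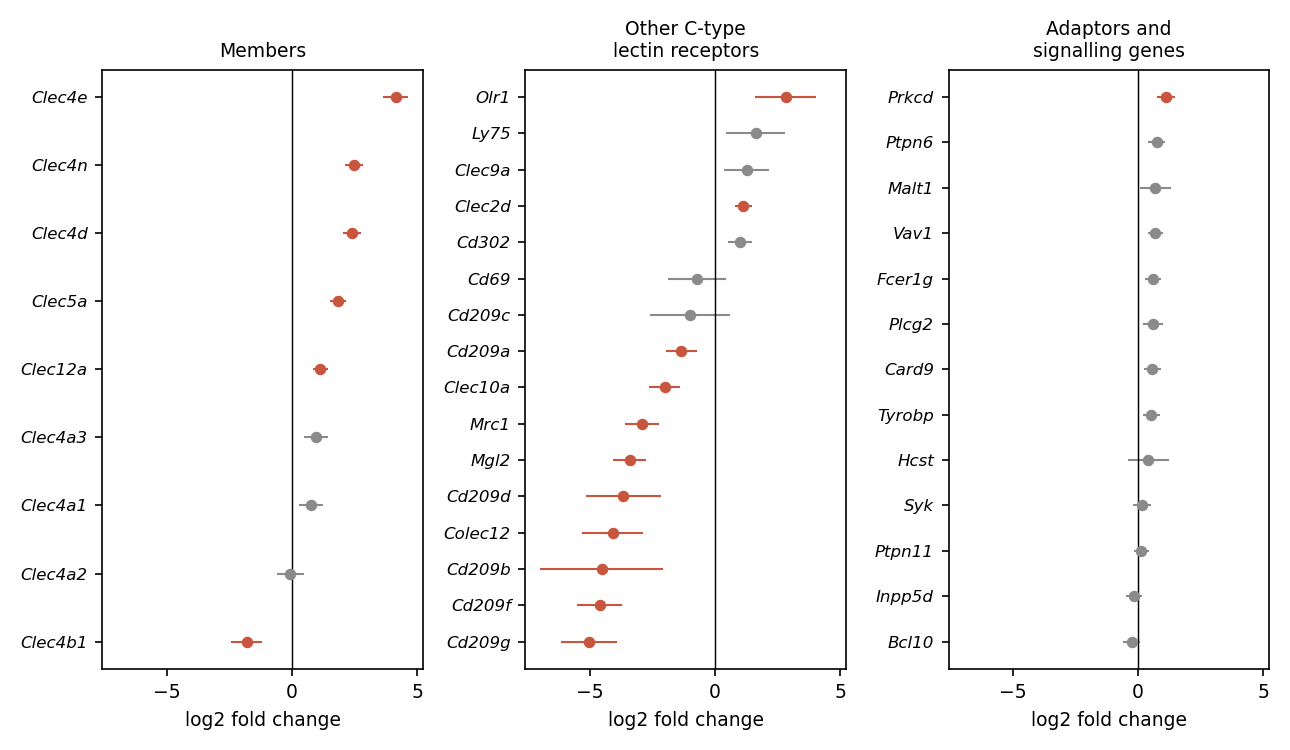
Log2 fold change (WGP over PBS, horizontal axis) with 95% intervals of the 9 members, of other C-type lectin receptor genes and of adaptor and signalling genes, for the 38 genes with a standard error under 1.2, of the 46 tested. Called genes are red and others grey. Among the members 5 red points lie to the right and 1 to the left, while among the other receptors 9 lie to the left and 2 to the right.

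The genes whose pattern over the 6 libraries was most like that of each strongly rising member were found by the root mean square difference of log2 CPM from the PBS mean, among 8567 other genes with a mean of at least 10 CPM. For Clec4e these were Fpr2, a formyl peptide receptor (difference 0.29), Ifi205, an interferon-inducible gene (0.30), and Il1rn, the gene of the interleukin-1 receptor antagonist (0.32). Il1rn had 37.3, 44.2 and 27.3 CPM with PBS and 806, 658 and 524 CPM in the WGP libraries. For Clec4d they were Ptgfrn (0.09), the glycolytic enzyme gene Tpi1 (0.11) and Clec4n (0.14). For Clec4n they were Hif1a, the gene of an oxygen-regulated transcription factor (0.13), Ptgfrn (0.14) and Clec4d (0.14). Clec4d and Clec4n were thus among the nearest genes of each other, while Clec4e was at 1.23 from Clec4d and 1.19 from Clec4n, since it rose further. The measure takes in the size of the change, and all 6 libraries were used both for it and for the fold changes.

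Markers of the sorted cells and of other cell types were read in the same libraries. The gene said to lead a list has its highest mean level per kb of exon in the PBS libraries. In bulk samples, fewer cells of a type and less RNA per cell cannot be told apart. Ptprc and Itgam, the genes of the sorted antigens CD45 and CD11b, were present in all libraries, at 1043, 965 and 949 and at 189, 241 and 254 CPM in the PBS libraries. In the WGP libraries they were at 1747, 1536 and 1547 and at 388, 418 and 379 CPM. Both passed the adjusted p (log2 fold change 0.71 and 0.79, edgeR adjusted p = 0.00725 and 0.00618) and not the fold change threshold. Of 6 genes of Ly6C-high monocytes 4 rose and 0 fell, and their summed level was 1146, 856 and 699 CPM with PBS and 3561, 3156 and 3470 CPM in the WGP libraries. This list was led by Plac8, and Ccr2, the chemokine receptor of these monocytes, had 224, 369 and 407 CPM with PBS and 1497, 1061 and 1386 CPM in the WGP libraries. All 6 genes of resident macrophages fell, with a summed level of 3575, 7237 and 9416 CPM with PBS and 500.1, 717 and 577 CPM in the WGP libraries, led by Cbr2. Of 6 genes of macrophages in general 1 fell, and the sum was 6963, 11418 and 12669 CPM with PBS and 5988, 7292 and 7072 CPM in the WGP libraries, led by C1qa. Of 5 genes of Ly6C-low monocytes 1 rose and 1 fell, with 1722, 1688 and 1319 CPM and 1335, 612 and 945 CPM, led by Nr4a1. The rise of Clec4e, Clec4d, Clec4n, Clec5a and Clec12a and the fall of Clec4b1 thus went with a higher level of Ly6C-high monocyte genes and a lower level of resident macrophage genes, and the part of these cell types in the results was not tested. Of the other lectin receptors that fell, Mrc1 is itself in the list of resident macrophages, whose median log2 fold change was -3.61, and Cd209a is in that of dendritic cells.

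Of 10 neutrophil genes 1 rose and 0 fell, and their sum was 6108, 3167 and 1768 CPM with PBS and 2412, 2719 and 2634 CPM in the WGP libraries, led by S100a9. The sum of the WGP libraries thus lay within the range of the PBS libraries, while several single genes of the list lay above or below their own PBS range in some WGP libraries. Over the other fits the lowest log2 fold changes of S100a8, S100a9, Retnlg, Mmp8, Camp, Ltf and Ngp lay between -2.1 and -1.45. Each of these genes passed the adjusted p in some other fit, so the absence of a fall depended on the fit. Cd79a, a B cell gene, fell from 686, 167 and 92.6 CPM to 37.7, 35.4 and 24.0 CPM. All 6 acinar cell genes, which stand for the digestive enzymes of the surrounding tissue, fell from 1660, 4130 and 978 CPM to 313, 498 and 270.5 CPM, led by Ctrb1. Of 5 NK cell genes 1 fell, Gzma, which also led the list, and the sum went from 186, 89.3 and 40.9 CPM to 38.5, 48.5 and 39.3 CPM. Of 6 genes of conventional dendritic cells 1 fell, with 249, 235 and 238 CPM with PBS and 197, 105 and 186 CPM in the WGP libraries, led by Cd209a. Of 3 genes of plasmacytoid dendritic cells 1 fell, with 51.5, 99.4 and 43.2 CPM and 10.9, 17.0 and 4.98 CPM, led by Klk1. With PBS, Klk1 was at 24.4, 60.2 and 13.4 CPM, and its PBS libraries came in the same order as those of the acinar sum. Of 5 T cell genes 1 rose, Cd8a, which was at 0 in all PBS libraries, and the sum was 19.5, 25.9 and 31.9 CPM and 11.045, 41.8 and 19.7 CPM, led by Cd4. Of 5 eosinophil genes 0 were called by edgeR or limma-voom and 2 by DESeq2, with 1 higher and 2 lower at an unadjusted p under 0.05. Their sum was 82.5, 29.9 and 12.999 CPM and 62.3, 21.9 and 16.8 CPM, led by Il5ra, and Epx was at 0 in all WGP libraries. Of 4 genes of mast cells and basophils Cpa3 was at 0 in all libraries, and Mcpt8, which led the list, Ms4a2 and Fcer1a were at 0 in all WGP libraries. Their sum was 12.5, 0.87 and 0 CPM in the PBS libraries, 0 were called by edgeR, DESeq2 or limma-voom, and 1 was lower at an unadjusted p under 0.05. Some calls of markers did not hold in every fit, with an adjusted p of up to 0.0954 for Gzma, which limma-voom did not call, 0.210 for Cd8a, 0.0756 for C1qa, 0.0530 for Cxcr2 and 0.0565 for Cel.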

How the data were processed

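The samples were CD45+CD11b+ cells of mouse pancreas, 3 libraries from PBS-treated and 3 from WGP-treated mice, grouped by their titles. Per the labels and the methods of the study, the authors aligned reads with STAR 2.6 to GRCm38 (mm10), counted them per gene with HTSeq 0.10.0 and deposited raw counts without normalization. The annotation release, the strand setting and the treatment of duplicate reads are not given in the sources used here, and the counts carry no molecular identifiers. The most frequent low count was 42, 31 and 28 in the PBS libraries and 18, 30 and 30 in the WGP libraries, so low counts are less precise than their number implies.

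Of 21780 listed genes, 21700 are protein-coding in GENCODE vM21. The 14429 of these whose RLE-normalized counts reached 10 in total were tested with edgeR 4.0.16 in R 4.3.3 (TMM scaling, quasi-likelihood F test, Benjamini-Hochberg adjustment). Standard errors are the log2 fold change divided by the square root of F. CPM were scaled by TMM, and levels between genes are CPM per kb of the union of exons. The script for the test was checked on simulated counts with the same dispersion for every gene. That setting is simpler than these data, so the check does not cover their spread between replicates or the imprecision of low counts. The lowest count of any of the 9 genes in a library was 234, for Clec4b1 in WGP replicate 1. Divided by the most frequent low count of each library, Clec4b1 was at 13, 7.87 and 10 in the WGP libraries. Its log2 fold change with counts divided in this way was -1.79. All pairs of replicates differed beyond sampling noise.

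The members and lists were chosen with earlier results of these data known. Named genes are the 9 members, the called and the 3 most abundant genes per length of the other lectin and adaptor lists, genes in the cluster span, the marker that leads each list per length and markers at 0, and the 3 genes most alike in pattern to Clec4e, Clec4d and Clec4n. Syk, Card9, Vav1, Ccr2, Cel, Clec4f, Clec12b, Cd209c, Cd209e, the neutrophil genes other than S100a9 and the genes flanking the cluster were named after their values were seen. Alternatives were RLE size factors, library totals, DESeq2 1.42.0, limma-voom (limma 3.58.1), other filters, all features, the replicate number as a block, a covariate for Y-linked counts, each library left out, other call thresholds, the longest transcript as the gene length and counts divided by the most frequent low count.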

Additional observations from a re-analysis of the deposited data

How the results depend on the processing

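The direction and the call of Clec4e, Clec4d, Clec4n, Clec4b1, Clec5a and Clec12a were the same in all 16 other fits. The number of members called was 6 with RLE size factors, library totals, DESeq2, limma-voom, other filters and all features, 8 with a covariate for Y-linked counts, between 6 and 7 when each library was left out, 8 at the adjusted p alone and 3 with a log2 fold change threshold of 2 in either direction. Over all genes 2071 passed the adjusted p alone and 568 the stricter fold change, and leaving out each library gave between 1146 and 1396. The alternatives for the other lists, and counts divided by the most frequent low count, were chosen after seeing the data, and the latter called 6 members and 1497 genes.

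Of the adaptor and signalling genes 7 passed the adjusted p alone and 0 the stricter fold change, and leaving out each library gave between 1 and 2. Of the other lectin receptors 11 were called, 12 by DESeq2, by limma-voom and with the Y-linked covariate, 13 with the replicate block, 9 at the stricter fold change and between 11 and 12 when each library was left out. Those called higher were 2, and 4 by DESeq2, by limma-voom, with the replicate block and with the Y-linked covariate, and 1 at the stricter fold change. Of the neighbouring genes 2 were called with the Y-linked covariate, 1 at the adjusted p alone, and between 0 and 1 when a library was left out. The log2 fold change of Clec4a2 changed sign, to 0.0013 with limma-voom, 0.0018 with the replicate block, 0.66 with the Y-linked covariate, and within a range from -0.32 to 0.11 when each library was left out. That of Clec4b2 was 5.45 without PBS replicate 1, which held all its PBS counts, in a range from -5.10 to 5.45 when each library was left out. The log2 difference of the Clec4d to Clec4n ratio was 0.02 without PBS replicate 1, in a range from -0.187 to 0.0216 when each library was left out. The causes were not tested.

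The replicate numbers were not taken as pairs in the main fit. The correlations of same-numbered libraries, as deviations from their group means, were 0.103, -0.02 and 0.101. Those of libraries with different numbers lay between -0.128 and 0.0186. With 3 libraries per group these correlations cannot decide whether the libraries were paired. With the replicate block 6 members and 1341 genes were called. With the longest transcript as the length, Clec12a was at 52.8 and 116 CPM per kb and Clec4d at 49.2 and 262 CPM per kb in the PBS and WGP libraries, above their values per union of exons. Clec4a4 and Clec4b2 have few counts, and the effect of depth was not tested.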
